A study of Solanum lycopersicum with 12 samples.

Results

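CNR, AP2a, HB1 and DML2 are 4 regulators of tomato fruit ripening that belong neither to the MADS-box nor to the NAC family, and they are described here over wild-type fruit and fruit of a NOR mutant. They were picked by identifier, not by a cut on their values, though with earlier results of these data known. All 4 of 4 were found among the 34075 genes of the count table and among the 20070 genes that passed the low-count filter. Their identifiers are Solyc02g077920.4 (CNR, chromosome 2), Solyc03g044300.3 (AP2a, chromosome 3), Solyc02g086930.4 (HB1, chromosome 2) and Solyc10g083630.2 (DML2, chromosome 10), and a RefSeq gene of the matching symbol lies on the same chromosome for each.

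The fruit came from the cultivar Ailsa Craig (AC), as wild type (WT) or as slnor, a CRISPR mutant of the NAC transcription factor gene NOR in the AC background. RNA was sequenced at breaker, when the green fruit begins to change colour, and 7 days later, with 3 libraries in each of the 4 groups. All plants were greenhouse-grown under the same day and night cycle. The labels give the tissue only as fruit and do not say how many independent mutant lines were used. They do not name separate plants behind the replicates either, so the p-values describe the spread between these libraries, which may be technical.

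Ripening of a climacteric fruit such as tomato is driven by a burst of ethylene and by a network of transcription factors. CNR is an SBP-box transcription factor, known from the Cnr epimutant, whose colourless fruit carries a heavily methylated CNR promoter. AP2a is an AP2/ERF-family transcription factor that promotes ripening while restraining ethylene synthesis. HB1 is a homeodomain-leucine zipper protein reported to bind the promoter of the ACC oxidase gene ACO1, which makes the last enzyme of ethylene synthesis. DML2 is a DNA glycosylase that removes methylated cytosine, and loss of its activity blocks ripening and leaves the promoters of ripening genes methylated.

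The libraries held 50714230 to 69124795 counts. Each of the 4 genes was deeply covered, from 4227 counts for HB1 in its lowest library to 127580 for DML2 in its highest. Fruit identity was visible in every library, since the ripe-fruit transcripts E8 (named from nomenclature only), E4, PG2a and PSY1 summed to 16445 CPM or more. CPM are counts relative to the size of the library, here scaled between libraries with the TMM method, which assumes that most genes do not change. Of the markers of other tissues, 6 green-tissue genes summed to 777 to 835 CPM in wild type and 597 to 657 CPM in slnor at breaker, and to 217 to 224 and 253 to 263 CPM after 7 days. The 4 epidermis genes summed to 435 to 460, 159 to 164, 115 to 116 and 161 to 171 CPM in the same order. The 6 genes listed as seed markers, 2 of them at 0 in all libraries, summed to 70.1 to 77.7, 8.95 to 10.8, 15.5 to 18.2 and 3.50 to 3.89 CPM. Each sum rests mostly on the most abundant genes of its list, and single genes differed. In slnor at breaker 2 epidermis genes were called lower and 2 higher, and 4 green-tissue genes lower and 1 higher. Of 3 seed-list genes tested, 1 was lower and 1 higher. Among all genes, 23.7% were lower and 25.6% higher. These markers moved with the groups, and their part in the results was not tested. In bulk fruit, fewer cells of a type and less RNA per cell cannot be told apart.

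The mutated gene NOR (Solyc10g006880.3) was transcribed in every library, between 955 and 978 CPM in wild type and between 776 and 896 CPM in slnor at breaker, and, in the reverse order, between 459 and 480 CPM in wild type and between 515 and 577 CPM in slnor after 7 days. The lower call at breaker was lost with library totals (adjusted p = 0.281) and with limma on FPKM (adjusted p = 0.291). The higher level in slnor after 7 days was called, and both of these settings kept that call. A CRISPR mutation can leave the transcript level as it is, and the genotype cannot be read from these values.

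The 4 regulators differ in abundance. Per transcript length, on the FPKM scale (counts per kilobase, scaled to the library), wild-type breaker fruit held 309 ± 11.5 FPKM of DML2 (SD, n = 3 for this and the other group values), 283 ± 2.12 of AP2a, 269.5 ± 4.17 of CNR and 67.4 ± 0.939 of HB1. DML2 and AP2a thus stood highest in this group and HB1 lowest, and HB1 was the lowest of the 4 in all 4 groups. In slnor at breaker the order changed to CNR at 226 ± 5.11, DML2 at 191 ± 1.28, AP2a at 133 ± 1.32 and HB1 at 55.9 ± 2.55 FPKM. After 7 days CNR stood highest in both genotypes, at 238 FPKM (SD 3.60) in wild type and 299.9 FPKM (SD 3.77) in slnor.

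**Figure D1:**
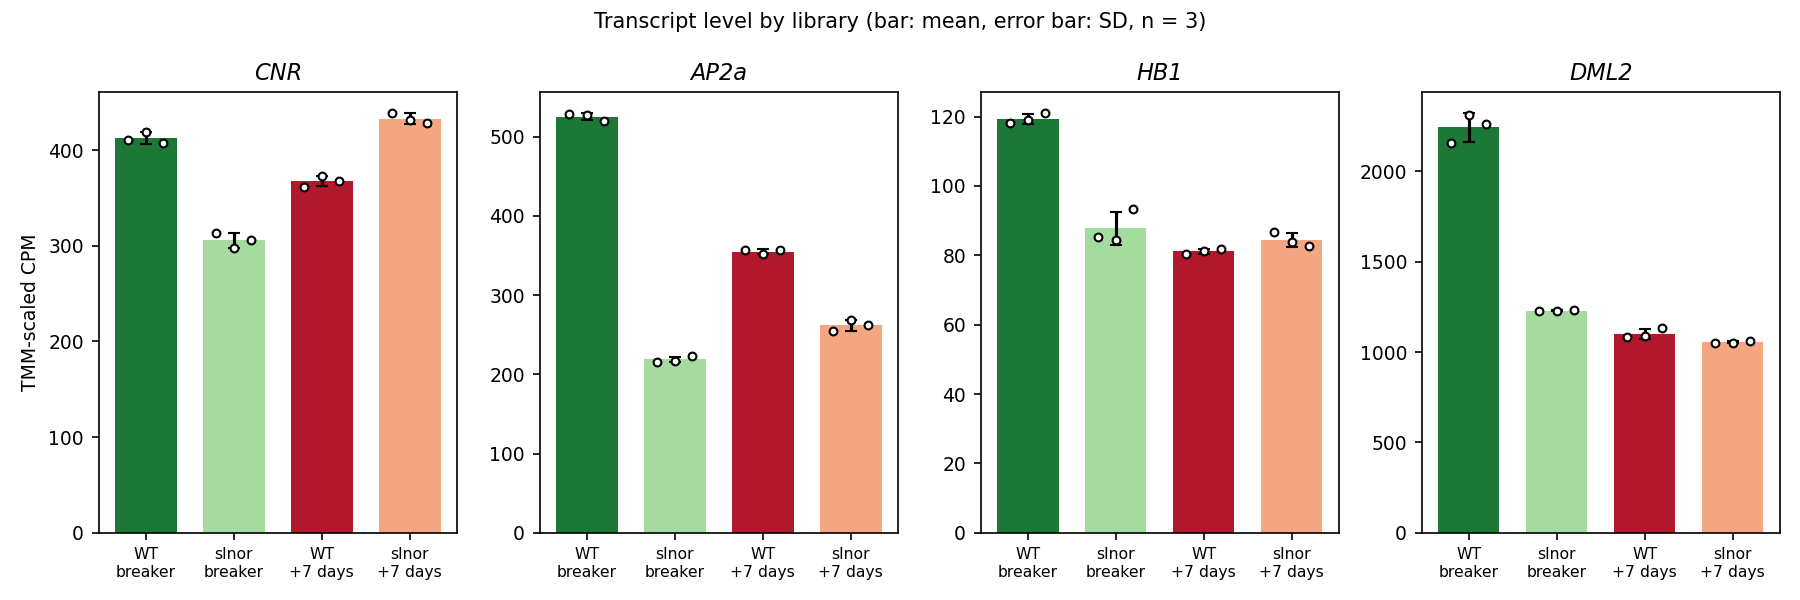
TMM-scaled CPM of CNR, AP2a, HB1 and DML2 in the 4 groups; bars are means, error bars SD, points the 3 libraries of a group, and each panel has its own axis from 0. Wild type at breaker is the highest group for AP2a, HB1 and DML2, and slnor 7 days later is the highest for CNR.

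The comparison of slnor with wild type at breaker asked how these regulators stand when ripening begins without normal NOR. All 4 were lower in slnor. AP2a was 2.40-fold lower and DML2 1.83-fold lower, while HB1 and CNR were 1.36-fold and 1.35-fold lower. Of all genes tested, 49.3% passed an adjusted p under 0.05 in this comparison, 25.6% as higher and 23.7% as lower, so a call on its own is common here, and the sizes are given below.

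AP2a, the transcription factor that restrains ethylene synthesis, gave 529, 527 and 520.2 CPM in wild-type libraries against 216, 217 and 223 CPM in slnor libraries. The groups were far apart, and the lowest wild-type library exceeded the highest slnor library 2.33-fold. On the log2 scale the change was −1.26 (SE 0.030, adjusted p = 3.36e-15, edgeR's quasi-likelihood test with Benjamini-Hochberg adjustment, as throughout), and 11.0% of the genes tested had a larger change in either direction.

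DML2, the demethylase, gave 2157, 2312 and 2264 CPM in wild-type libraries against 1228, 1225 and 1232 CPM in slnor libraries. The slnor libraries lay close together and all below wild type. The log2 change of −0.87 (SE 0.030, adjusted p = 2.38e-13) was exceeded in size by 18.0% of genes.

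CNR, the SBP-box factor, gave 410.3, 419 and 408 CPM in wild-type libraries against 313, 298 and 307 CPM in slnor libraries, a log2 change of −0.43 (SE 0.030, adjusted p = 2.14e-09). HB1, the homeodomain factor, gave 118, 119 and 121 CPM in wild-type libraries against 85.4, 84.5 and 93.3 CPM in slnor libraries, a log2 change of −0.44 (SE 0.040, adjusted p = 6.33e-08). Neither gene's groups overlapped, but the changes were moderate, since 36.5% of genes changed more than CNR and 35.6% more than HB1.

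Scaling by library totals instead of TMM shifted the middle of all genes upward here, with the median log2 change going from 0.02 to 0.20. All 4 regulators were still called lower, by −1.09 for AP2a, −0.69 for DML2, −0.27 for HB1 and −0.26 for CNR. Such a rescaling shifts all genes by nearly the same amount, so it could not change the order of the 4.

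**Figure D2:**
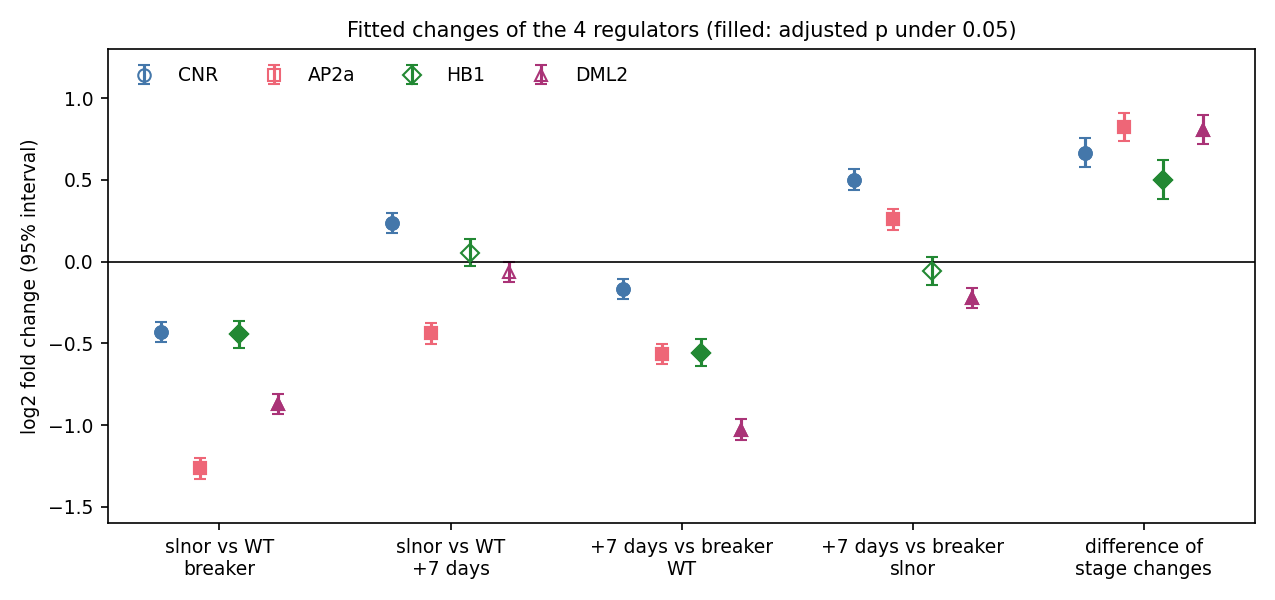
Fitted log2 fold changes of the 4 genes in 5 comparisons, with 95% intervals; filled symbols passed an adjusted p under 0.05. All 4 lie below 0 for slnor against wild type at breaker, from −1.26 to −0.43, and all 4 lie above 0 for the difference of the stage changes, from 0.50 to 0.82.

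The comparison of slnor with wild type 7 days after breaker gave a different picture for each gene. AP2a was still lower in slnor (1.36-fold), CNR was higher (1.18-fold), and HB1 and DML2 did not pass the test. In this comparison 55.8% of all genes passed, 28.5% as higher and 27.4% as lower.

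AP2a gave 357, 351 and 356 CPM in wild-type libraries against 255, 268 and 262 CPM in slnor libraries of this stage. The groups did not overlap, and the log2 change was −0.44 (SE 0.029, adjusted p = 1.22e-09), against −1.26 at breaker. CNR gave 362, 372 and 368 CPM in wild-type libraries against 439, 432 and 428 CPM in slnor libraries. Every slnor library thus exceeded every wild-type library, the opposite order to breaker, with a log2 change of 0.24 (SE 0.030, adjusted p = 2.98e-06). A call of lower at breaker and higher 7 days later was shared by 853 of the 20070 genes tested (4.25%).

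HB1 gave 80.5, 81.1 and 81.9 CPM in wild-type libraries against 86.6, 83.8 and 82.8 CPM in slnor libraries 7 days after breaker. Its log2 change of 0.06 had a 95% interval from −0.029 to 0.14 (adjusted p = 0.251), and with library totals it was 0.16 and called (adjusted p = 0.0022). DML2 gave 1081, 1086 and 1134 CPM in wild-type libraries against 1050.3, 1052 and 1062 CPM in slnor libraries. Its log2 change of −0.06 had a 95% interval from −0.12 to 0.00063 (adjusted p = 0.0859), and its sign was positive with library totals (0.038, adjusted p = 0.288). For both genes the interval of the difference was narrow at this stage, though a p above the threshold does not show that the genotypes were equal.

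During 7 days of ripening in wild type all 4 genes fell. DML2 fell 2.04-fold, from 2244 ± 79.4 to 1101 ± 29.4 CPM, a log2 change of −1.03 (SE 0.030, adjusted p = 1.07e-14). AP2a fell 1.48-fold from 525 ± 4.58 to 355 ± 2.96 CPM (log2 change −0.57, SE 0.029, adjusted p = 2.47e-11). These are a gene of the demethylase family and the ethylene-restraining factor, and both, like HB1, were at their highest in wild-type breaker fruit.

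HB1 fell 1.47-fold from 119 ± 1.47 to 81.2 ± 0.722 CPM (log2 change −0.56, SE 0.040, adjusted p = 1.96e-09). CNR fell only 1.12-fold, from 412 ± 6.18 to 367 ± 5.35 CPM (log2 change −0.17, SE 0.030, adjusted p = 1.00e-04), a change smaller than that of 78.3% of genes. None of the 4 genes had libraries that overlapped between the stages, but the share of all genes without overlap was not counted. Of all genes tested, 65.3% changed over this interval, 33.2% as higher and 32.1% as lower, so 4 falls among 4 genes are read against a background in which a fall is frequent.

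In slnor the same interval went differently for each gene, against a background of 52.2% of genes called, 26.2% as higher and 26% as lower. CNR rose 1.42-fold, from 306 ± 7.69 to 433 ± 5.28 CPM (log2 change 0.50, SE 0.030, adjusted p = 3.40e-10). AP2a rose from 219 ± 3.72 to 262 ± 6.38 CPM (log2 change 0.26, SE 0.029, adjusted p = 1.20e-06), or by 0.17 on the log2 scale with library totals. Both therefore moved in the opposite direction to wild type, a pair of calls (lower in wild type, higher in slnor) that 575 genes shared (2.86%).

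DML2 fell in slnor as in wild type but by less, from 1229 ± 3.71 to 1055 ± 6.22 CPM (log2 change −0.22, SE 0.029, adjusted p = 7.36e-06). HB1 averaged 87.7 ± 4.85 CPM in the breaker libraries of slnor and 84.4 ± 1.96 CPM in the later ones, and these libraries overlapped. The log2 change of HB1 was −0.06 (95% interval −0.14 to 0.028, adjusted p = 0.258), and −0.15 and called with library totals (adjusted p = 0.00379).

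The difference between the stage changes of the genotypes, tested as an interaction over the same 12 libraries, was positive and passed for all 4 genes. Among all genes 42.2% passed this test, 21.8% as higher and 20.4% as lower. Its log2 value was 0.82 for AP2a (SE 0.041, adjusted p = 8.92e-11) and 0.81 for DML2 (SE 0.042, adjusted p = 1.17e-10). For CNR it was 0.67 (SE 0.042, adjusted p = 1.33e-09) and for HB1 0.50 (SE 0.056, adjusted p = 1.80e-06). Each gene thus stood higher relative to wild type after 7 days than at breaker, AP2a and DML2 most. Larger interactions in either direction were found for 22.9% of genes in the case of AP2a and 36.6% in the case of HB1.

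Set side by side over the 4 groups, the orders of the levels differed between the genes. For AP2a the order from high to low was wild type at breaker, wild type after 7 days, slnor after 7 days and slnor at breaker, and every neighbouring pair passed the test. For CNR it was slnor after 7 days, wild type at breaker, wild type after 7 days and slnor at breaker. The first pair of that order was barely separated, with a log2 change of 0.070 (adjusted p = 0.0493). That call was lost without the low-count filter (adjusted p = 0.0727) and in 10 of the 12 fits that left out 1 library, all but those without slnor replicate 3 or wild-type replicate 2 at breaker. It was kept with DESeq2 (0.065, adjusted p = 0.0266), and the change was larger with library totals (0.16, adjusted p = 1.81e-04) and with limma on FPKM (0.15, adjusted p = 2.56e-04).

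For DML2 both breaker groups came first, wild type above slnor, then wild type after 7 days and slnor after 7 days, of which the last pair was not separated. The gap between the middle pair, 1229 against 1101 CPM, was called (log2 change −0.16, adjusted p = 1.39e-04), and was wider with library totals (−0.35) and with limma on FPKM (−0.34). That comparison was chosen after the levels were seen, and 68.1% of genes passed in it, 33.2% as higher and 34.9% as lower. For HB1 the order was wild type at breaker, slnor at breaker, slnor after 7 days and wild type after 7 days, and the 3 lower groups lay between 80.5 and 93.3 CPM. Among them, wild type after 7 days was lower than slnor at breaker (log2 change −0.11, adjusted p = 0.0201). This call was lost without slnor replicate 3 at breaker (−0.065, adjusted p = 0.142) or without replicate 1 of wild type after 7 days (−0.11, adjusted p = 0.0595), and the change was larger with library totals (−0.30, adjusted p = 2.00e-06) and with limma on FPKM (−0.29, adjusted p = 4.89e-06).

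Late slnor fruit, set beside wild-type breaker fruit, held 2.13-fold less DML2, 2.01-fold less AP2a and 1.41-fold less HB1, with log2 changes of −1.09, −1.01 and −0.50. CNR was the one of the 4 at about the wild-type breaker level. This comparison mixes genotype and stage, and 60.2% of all genes passed in it, 30.1% as higher and 30.1% as lower.

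The ratio of 2 genes within a library does not depend on how libraries are scaled. In wild type at breaker AP2a stood at 1.05 ± 0.013 times CNR on the FPKM scale, and in slnor at 0.589 ± 0.018 times. After 7 days the ratio was 0.795 ± 0.017 in wild type and 0.497 ± 0.017 in slnor. AP2a was thus lower relative to CNR in slnor at both stages, and lower at the later stage in both genotypes, with no overlap of libraries.

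DML2 over CNR followed the same course, with 1.14 ± 0.034 and 0.845 ± 0.020 at breaker in wild type and slnor, and 0.63 ± 0.017 and 0.513 ± 0.0089 after 7 days. DML2 over AP2a went the other way between genotypes, at 1.09 ± 0.043 in wild type and 1.44 ± 0.021 in slnor at breaker. HB1 over CNR was 0.25 ± 0.0058 in wild type and 0.248 ± 0.014 in slnor at breaker, and its libraries overlapped (exact two-sided permutation p = 0.8, adjusted p = 0.8). HB1 over AP2a was 0.239 in wild type at breaker and 0.240 after 7 days, also with overlap, the fall of both genes in wild type being of like size. Of 24 ratio comparisons, 22 had no overlap, and ratios of other gene pairs were not formed for comparison. With 3 libraries against 3 the smallest exact permutation p is 0.1, which those 22 had (adjusted p = 0.109).

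**Figure D3:**
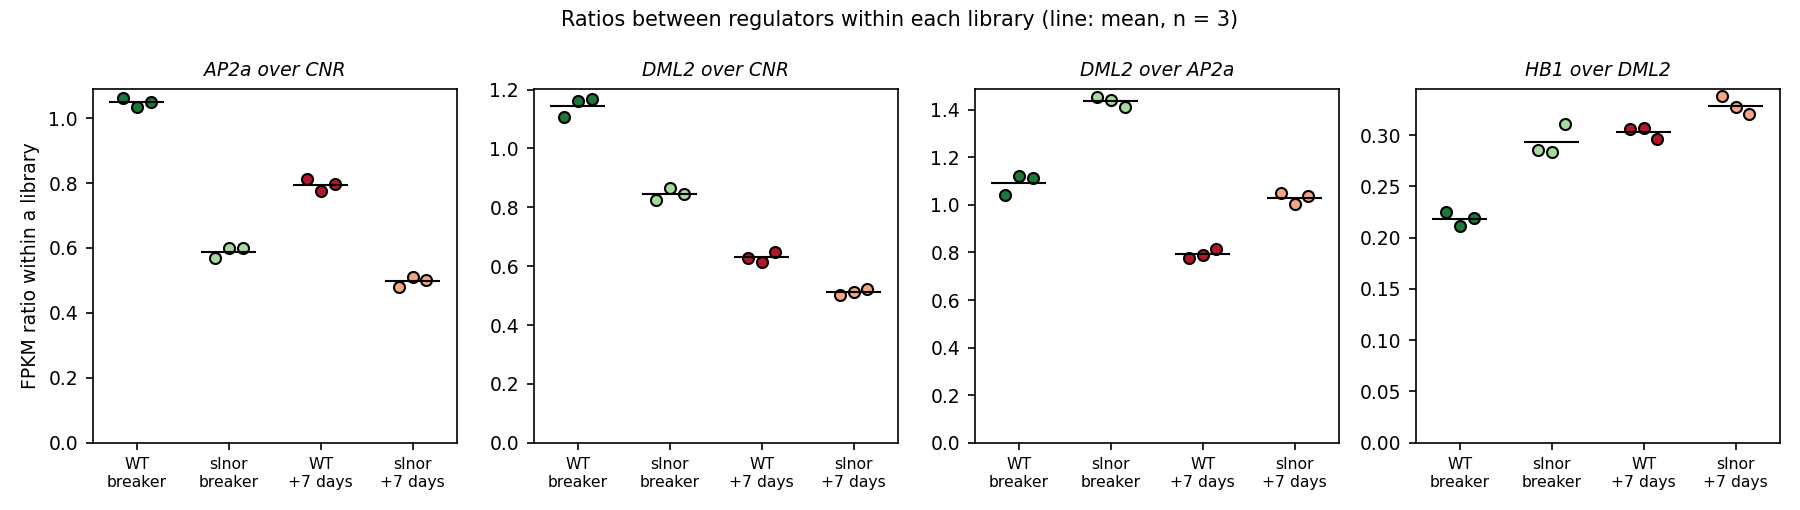
FPKM ratios between pairs of the 4 genes in each library, with lines at the group means (n = 3) and axes from 0. AP2a over CNR lies between 1.03 and 1.06 in wild type at breaker and between 0.479 and 0.511 in slnor 7 days later.

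DML2 is 1 of 4 tomato demethylase genes, and it supplied most of the family's transcript, from 86.6% to 94.2% of the summed FPKM in the 12 libraries. Its share was 94.0%, 94.2% and 94.2% in wild type and 89.0%, 88.4% and 88.9% in slnor at breaker, and these shares, like the ratios, do not depend on scaling. The lower level in slnor was not shared by the relatives, and of all genes 23.7% were called lower and 25.6% higher. Of the other 3 genes, DML1 was higher in slnor at breaker (25.6 ± 2.61 CPM, against 20 ± 1.48 in wild type, log2 change 0.36, adjusted p = 0.0012), and DML3 (0.09, adjusted p = 0.081) and DML4 (0.19, adjusted p = 0.0621) did not pass. With library totals all 3 were called higher, but that setting shifted all genes upward. The median log2 change of all genes was then 0.20, and 74.9% of called genes were higher, against 51.9% with TMM.

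After 7 days DML3 held 111.9 ± 2.35 CPM in slnor against 90.3 ± 4.31 in wild type (log2 change 0.31, adjusted p = 5.67e-06). DML1 held 11.9 ± 0.609 against 7.58 ± 0.273 CPM (0.65, adjusted p = 6.14e-06), and DML4 did not pass. Over the 7 days DML1 fell by 1.40 (wild type) and by 1.11 (slnor) on the log2 scale. DML3 instead rose with stage, by 0.35 in slnor and by 0.13 in wild type, where the call was lost with limma on FPKM (adjusted p = 0.066). DML4 fell in slnor (17.3 ± 0.691 to 12.9 ± 0.700 CPM, log2 change −0.42, adjusted p = 3.82e-04) and did not pass in wild type (−0.16, adjusted p = 0.0974). DML3 was thus the one gene of the family called as rising, where 33.2% of all genes rose in wild type and 26.2% in slnor.

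The genes that set DNA methylation moved in part against DML2. Of 10 methyltransferase and maintenance genes tested, 5 were higher in slnor at breaker (25.6% of all genes were) and 5 did not pass, with a median log2 change of 0.25 against 0.02 for all genes. The number called lower was 0 by edgeR, by DESeq2 and by limma on FPKM, and also 0 at an unadjusted p under 0.05 in edgeR. The most abundant of them, the chromomethylase gene CMT2, held 60.9 ± 4.02 CPM in slnor against 51.9 ± 2.05 in wild type. MET1, the maintenance methyltransferase of CG sites, gave 31.3, 33.5 and 35.9 CPM in wild-type libraries against 46.1, 50.6 and 44.2 CPM in slnor libraries at breaker (log2 change 0.48, SE 0.056, adjusted p = 1.66e-06), the reverse of DML2. MET1 is named because, of the listed genes, it ran most opposite to DML2 and HB1 over these same libraries (Pearson's r, below). Its reverse direction was thus built into the choice and is no separate result.

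After 7 days, 5 of the 10 were higher in slnor (28.5% of all genes) and 1 lower (27.4%), with CMT2 at 60.9 ± 1.68 against 39.1 ± 1.44 CPM (1.56-fold). CMT3, another chromomethylase gene, was 2.32-fold higher at under 1 CPM. The one that was lower, DRM8, a gene of the domains-rearranged methyltransferase family named outside the rule after its value was seen, held 15.4 ± 0.963 against 19.2 ± 0.402 CPM, and its call was lost with library totals (adjusted p = 0.0507).

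In wild type 6 of the 10 methylation genes rose with stage (33.2% of all genes) and 2 fell (32.1%). In slnor 4 rose (26.2% of all genes) and 2 fell (26%), or 1 rose with library totals, and 1 fell with DESeq2. CMT4, also a chromomethylase gene, fell most, from 4.50 ± 0.377 to 0.897 ± 0.369 CPM in wild type and from 4 ± 0.683 to 1.61 ± 0.296 CPM in slnor. DDM1b, a chromatin remodeller gene of methylation maintenance, rose by 0.72 (wild type) and 0.59 (slnor) on the log2 scale, and the rise in slnor was not called with library totals (adjusted p = 0.0643). MET1 rose by 0.55 in wild type (adjusted p = 2.08e-07) and did not pass in slnor (0.10, adjusted p = 0.147), and the difference between these changes passed (−0.45, adjusted p = 2.04e-04), with a sign opposite to that of DML2. That sign is not independent of the choice of MET1 for its course opposite to DML2.

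**Figure D4:**
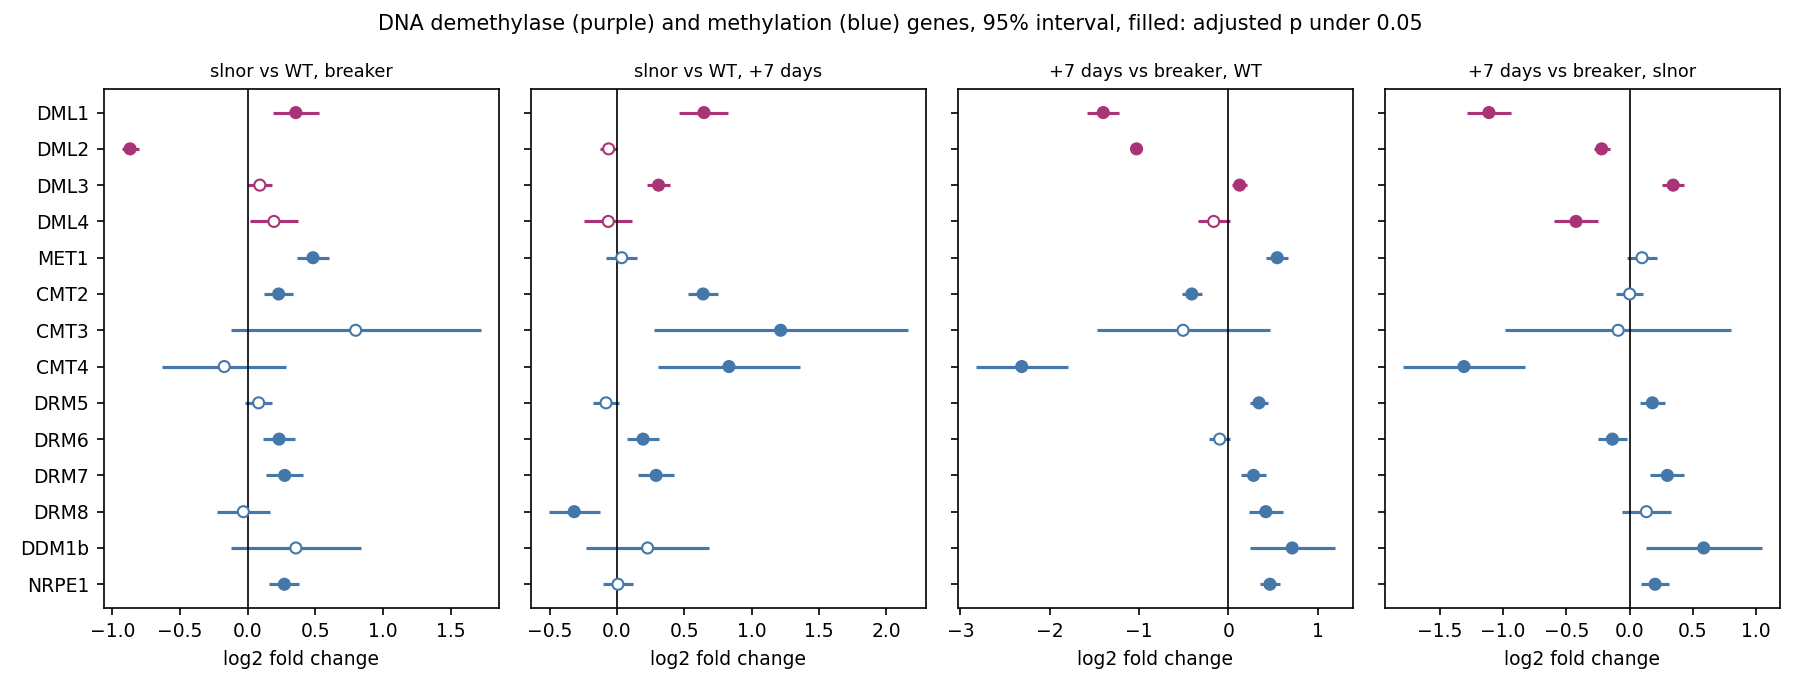
Log2 fold changes with 95% intervals of the 4 demethylase genes and the 10 methylation genes tested, in 4 comparisons; filled symbols passed an adjusted p under 0.05, and each panel has its own axis. DML2 lies at −0.87 for slnor against wild type at breaker, where DML1 (0.36) and MET1 (0.48) lie above 0.

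AP2a likewise dominated its subfamily, with 89.3% to 98.0% of the summed FPKM of the 5 AP2 genes listed. Besides AP2a, 0 of the other 4 were lower in slnor at breaker by edgeR, also at an unadjusted p under 0.05. Among all genes, 23.7% were called lower in that comparison and 25.6% higher. AP2d averaged 6.76 ± 1.91 CPM in slnor against 1.62 ± 0.262 CPM in wild type (log2 change 2.06, SE 0.22, adjusted p = 6.81e-07), opposite to AP2a. AP2c averaged 17.7 ± 0.774 against 18 ± 1.32 CPM and did not pass (adjusted p = 0.864), nor did AP2b and AP2e, both with group means under 1 CPM.

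With stage, AP2c fell by 0.98 (wild type) and 0.47 (slnor) on the log2 scale, and AP2d by 1.78 and 3.06. AP2e fell by 1.46 in wild type, where its libraries overlapped. A rise over 7 days in slnor, as seen for AP2a, was not found in these relatives (26.2% of all genes rose). Of these relatives, 2 fell (26% of all genes did) and 2 did not pass. After 7 days AP2c was higher in slnor (12.8 ± 1.09 against 9.10 ± 1.20 CPM, log2 change 0.49, adjusted p = 3.68e-04), where AP2a was lower.

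Among the 7 MADS and NAC ripening regulators listed, 5 were lower in slnor at breaker, or 4 without the NOR call that depended on scaling (23.7% of all genes were lower), and 2, FUL2 (0.22) and NOR-like1 (0.32), were higher on the log2 scale, the last pair being named after their values were seen. All 7 had a positive interaction that passed, as the 4 genes here did (21.8% of all genes). FUL1, TAGL1 and RIN, all MADS-box genes, were lower by −1.34, −1.12 and −1.07. AP2a, at −1.26, was within that range, and DML2 (−0.87), HB1 (−0.44) and CNR (−0.43) were not. That range covers only the largest falls of the list, and the median log2 change of the 7 genes was −0.50. It leaves out the smaller falls of NOR and of the gene listed as NAC4 (373 CPM in slnor against 527 in wild type). Of 12 ripening genes, 11 were lower at breaker and the ACC synthase gene ACS4 was higher, by 0.11, a call lost when only the groups compared were fitted (adjusted p = 0.0543). After 7 days all 12 were lower (27.4% of all genes were), when CNR was higher and only AP2a of the 4 regulators was called lower.

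Genes with a like course were looked for among 39 other listed genes by Pearson's r of log2 CPM over the 12 libraries. These r values describe 4 groups of 3 libraries that share depth and scaling, and they carry no test. HB1 and DML2 were each other's nearest among these (r = 0.98). Of all genes tested, 0.154% had an r with HB1 at least that high, and 0.344% an r with DML2. For both the next was Solyc11g017470.2, listed as NAC4, a name that RefSeq places on another chromosome (r = 0.97 for both). MET1 ran opposite to both, at r = −0.96 with each.

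The wild-type breaker libraries stood apart from the other 9 for this pair, and over those 9 the r of HB1 with DML2 was 0.53. Over the same 9 libraries NAC4 kept r values of 0.91 with DML2 and 0.74 with HB1, and MET1 had −0.65 and −0.71. The closeness of HB1 to DML2 therefore rested in large part on the 3 wild-type breaker libraries, and that of DML2 to NAC4 did so less. Over the other 9 HB1 spanned only 80.5 to 93.3 CPM, and r tends to fall in a narrow range. The drop does not show that the 2 genes are related differently there.

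AP2a was nearest to the cell wall gene TBG4 (r = 0.98) and to the lipoxygenase gene LOXC (r = 0.97), and these were 0.95 and 0.92 over the 9 libraries. Both were highest in wild type at breaker, lower in wild type after 7 days and lowest in the slnor groups, as AP2a was, but over a wider range, with TBG4 from 22.9 to 500.5 CPM in group means. Least like AP2a was MET1 (r = −0.78), but over the 9 libraries this r was 0.31, of the opposite sign. CNR was nearest to FUL1 (r = 0.85) and RIN (r = 0.73), and an r with CNR as high as that of FUL1 was reached by 0.488% of all genes tested. FUL1 and RIN rose with stage in wild type, by 0.31 and 0.43 on the log2 scale, where CNR fell by 0.17. Least like CNR was AP2d (r = −0.72).

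**Figure D5:**
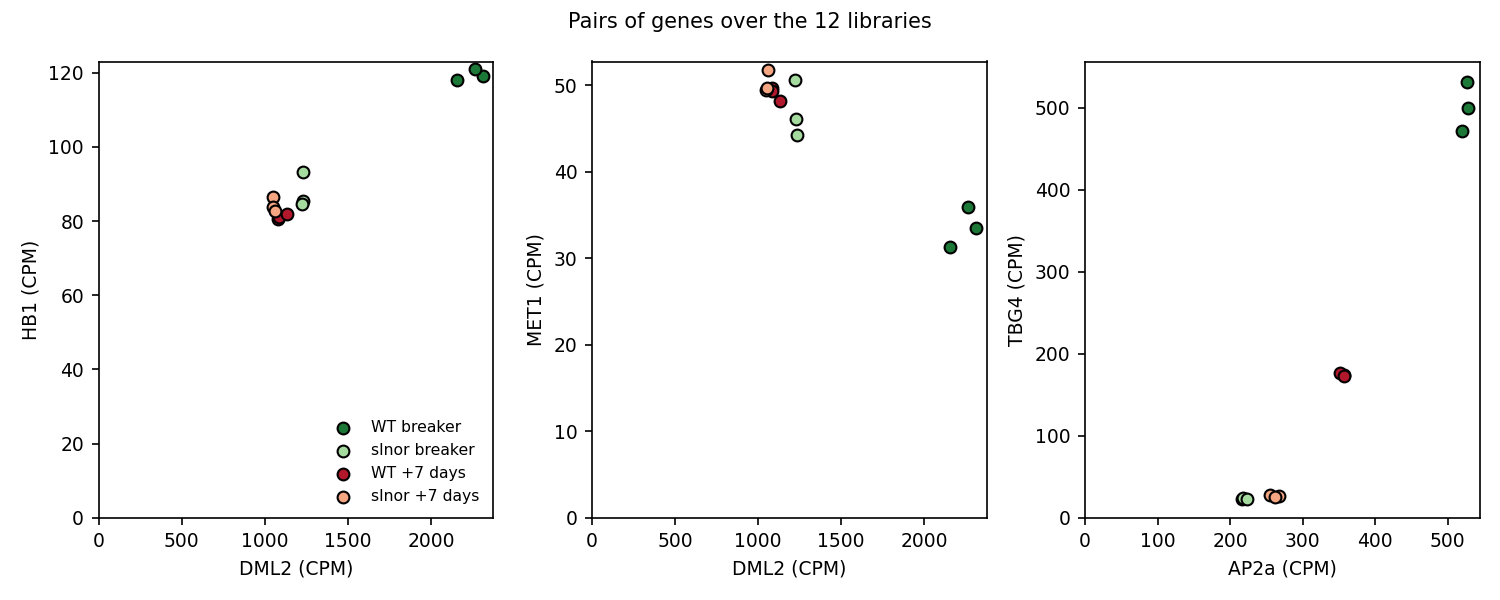
CPM of gene pairs over the 12 libraries, coloured by group, on axes from 0: HB1 and MET1 against DML2, and TBG4 against AP2a. The 3 wild-type breaker libraries lie apart from the other 9 in the DML2 panels, with DML2 at 2157 to 2312 CPM against 1050.3 to 1232 CPM.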

How the data were processed

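The authors deposited raw counts per gene for 12 libraries and, per library, a table inferred here to hold FPKM. In all 12, the count divided by that value and by the total implied 1 gene length, within 1%, for 100% of 7290 genes with at least 1000 counts everywhere. Per the submitters' processing notes HISAT, UMI-tools, StringTie and edgeR were used, without version or role. Build, annotation, strand setting and the meaning of a count (read or molecule) were not found in the labels or headers.

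Counts were tested in R 4.3.3 with edgeR 4.0.16 (glmQLFit, glmQLFTest, TMM, filterByExpr), with 1 fit of 12 libraries, Benjamini-Hochberg adjustment over 20070 genes and a threshold of 0.05; the scripts were checked on simulated data. SE is the log2 fold change over the square root of F. FPKM served for levels between genes, ratios and limma 3.58.1 on log2(FPKM + 1). DESeq2 1.42.0 was an alternative. Likeness used log2(CPM + 0.5). Replicates differed beyond sampling noise in each pair (chi-square over degrees of freedom 4.66 to 14.2), so none was merged. Same-numbered libraries did not deviate together (correlations −0.072 to 0.070).

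The members, lists and naming rule were chosen with earlier results of these data known. Names come from published nomenclature; 45 of 57 have a RefSeq symbol on the same chromosome. From lists of up to 5 genes any was named, and from longer ones up to 4 with at least 1.5-fold change and no overlap, else the most abundant. MET1, NAC4, TBG4, LOXC, FUL1, RIN and AP2d entered by likeness, and NOR as the mutated gene. ACO1, for its reported link to HB1, and ACS2 and ACS4, after their values were seen, lie outside the rule. NRPD1 was not analysed here. Sequences were not used here.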

Additional observations from a re-analysis of the deposited data

Results flagged for a closer look

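The change from breaker to 7 days later differed between the genotypes for all 4 genes, by the interaction test of edgeR over the 12 libraries. Among all genes 42.2% passed this test, 21.8% as higher and 20.4% as lower, so passing it is not particular to the 4. The difference (slnor minus wild type, log2) was 0.82 for AP2a, 0.81 for DML2, 0.67 for CNR and 0.50 for HB1. For CNR and AP2a the stages did not overlap in either genotype, with the breaker libraries higher in wild type and lower in slnor. The share of all genes without such overlap was not counted. For DML2 both genotypes fell, and HB1 fell in wild type and had overlapping libraries in slnor. Groups of 3 libraries are too small to judge whether a single library is an outlier. Each of the 4 interactions kept its sign and call in all 12 fits that left out 1 library. The values ran from 0.81 to 0.84 for AP2a and from 0.48 to 0.55 for HB1.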

How the results depend on the processing

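The 28 fold changes of the 4 genes were recomputed under 17 or 18 alternatives each, and 479 of the 500 values kept direction and call. For slnor against wild type 7 days after breaker, DML2 turned positive with library totals (0.038) and with limma on log2(FPKM + 1) (0.036), and HB1 became called with both (0.16 and 0.15), as did its stage change in slnor (−0.15 and −0.14). These 2 settings lack TMM. CNR in late slnor against wild type at breaker, 0.070 with an adjusted p of 0.0493, was lost without the low-count filter (0.071), with only the groups compared (0.069) and with the replicate number as a block (0.070), and ran from 0.055 to 0.083 with 1 library left out, but rose to 0.16 and 0.15 with the 2 settings lacking TMM and was kept with DESeq2 (0.065). HB1 in wild type after 7 days against slnor at breaker, a comparison chosen after seeing the data, ran from −0.14 to −0.065 with 1 library left out and was −0.30 and −0.29 without TMM, where DML2 was −0.35 and −0.34 instead of −0.16. The causes were not tested. The block changed no other call of the 28. No same-numbered pair reached a correlation of 0.1; 6 of 12 libraries correlated best with their own number. Library totals moved the share of called genes that are higher from 51.9% to 74.9% at breaker and from 51.0% to 64.3% after 7 days. Depth did not limit the 4 genes, whose lowest count was 4227, but AP2b, AP2e and CMT3 lie under 1 CPM.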

Other observations

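ACO1 (Solyc07g049530), the ACC oxidase gene whose promoter HB1 is reported to bind, averaged 3622 ± 88.5 CPM in the breaker libraries of slnor and 4582 ± 148 CPM in those of wild type, 1.27-fold lower where HB1 was 1.36-fold lower. Over 7 days ACO1 fell by 1.34 in wild type and 1.22 in slnor on the log2 scale (edgeR adjusted p = 2.60e-16 and 4.23e-15), whereas HB1 fell by 0.56 in wild type and did not pass in slnor. The difference between the stage changes was 0.12 for ACO1 (adjusted p = 0.0215, and 0.339 with library totals) and 0.50 for HB1. The ACC synthase genes ACS2 and ACS4 were named after their values were seen. ACS2 was lower in slnor at both stages, 3.82-fold at breaker and 2.23-fold after 7 days (379 ± 13.7 against 843 ± 5.70 CPM). ACS4 was 1.65-fold lower after 7 days, at 319.7 ± 12.9 CPM in slnor against 526 ± 1.25 CPM.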
